A study of Mus musculus with 12 samples.

Results

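Tau, the proteins that share its microtubules and the kinases that phosphorylate it were followed as 10 genes of mouse frontal cortex: Mapt, Map1a, Map1b, Map2, Stmn1, Gsk3a, Gsk3b, Cdk5, Cdk5r1 and Mark1. They were taken by symbol from a table of read counts with 54532 genes, of which 31149 had a count in at least 1 library. All 10 were in the table and all 10 passed the filter on low counts, which kept 17307 genes.

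The data were bulk mRNA sequencing of 12 mice, each aged 9 months. Both genotypes carried the APP/PS1 transgenes, mutant human amyloid precursor protein and presenilin that give mice amyloid plaques. The first genotype, APP/PS1, had 3 males and 3 females with Hras intact, and the second, APP/PS1/Hras-/-, had 3 males and 3 females with the small GTPase gene Hras knocked out. The comparison asks which cortical transcripts differ once Hras is removed from a mouse with amyloid. Neither mice without the transgenes nor Hras-/- mice without them were among the samples analysed here, and the sources used here name no promoter for the transgenes.

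Tau, encoded by Mapt, binds along microtubules in neurons, mainly in axons, and its phosphorylation loosens that binding. In Alzheimer's disease phosphorylated tau collects into tangles, and the kinases Gsk3 and Cdk5 are the ones most often linked to that phosphorylation. These libraries measure transcripts only: they hold no protein level, no phosphorylation and no kinase activity.

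Library totals ran from 13984692 to 20174131 counts. Hras was at 82.8 ± 9.84 CPM (CPM, reads scaled for library size; mean ± SD, n = 6 per genotype) when intact and 21.3 ± 1.68 CPM in APP/PS1/Hras-/- mice, a log2 difference of -1.95 (SE 0.077; edgeR's quasi-likelihood test with Benjamini-Hochberg adjustment, adjusted p = 3.04e-09). All 10 excitatory neuron markers were detected in each group, with a summed level of 5182 to 6418 CPM. Libraries stood apart before any comparison of the 10 genes. APP/PS1 female 2 had choroid plexus markers at 3.16 and excitatory neuron markers at -0.53 (mean-centred log2 CPM), and APP/PS1/Hras-/- male 1 had excitatory neuron markers at -0.33. APP/PS1 male 1 had the lowest RNA integrity number (RIN, a score of RNA intactness given in the labels), 7.8 against 8.2 to 8.7 in the other 11 libraries.

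Positions are on the mouse assembly GRCm38. Mapt lies on chromosome 11 from 104231390 to 104332090 with 7531 bp of exons. Map1a lies on chromosome 2 from 121289600 to 121310832 (12166 bp), Map1b on chromosome 13 from 99421446 to 99516540 (15846 bp) and Map2 on chromosome 1 from 66175273 to 66442583 (16449 bp). Stmn1, which encodes stathmin, a protein that binds free tubulin and promotes microtubule disassembly, lies on chromosome 4 from 134468320 to 134473843 with only 1922 bp of exons. Of the glycogen synthase kinase genes, Gsk3a lies on chromosome 7 from 25228258 to 25237851 (2900 bp) and Gsk3b on chromosome 16 from 38089001 to 38246084 (9831 bp). Cdk5, a neuronal cyclin-dependent kinase, lies on chromosome 5 from 24418241 to 24423530 (2168 bp). Cdk5r1, which encodes the activator that Cdk5 needs, lies on chromosome 11 from 80477023 to 80481184 (4162 bp). Mark1, a kinase that phosphorylates tau within its microtubule-binding repeats, lies on chromosome 1 from 184896789 to 184999570 (4356 bp). Exons of Gsk3a share 820 bp (28.3% of their length) with the antisense gene 9130221H12Rik, which had 1600 counts over the 12 libraries against 43324 for Gsk3a. Reads of this pair cannot be told apart where counting ignored strand, and the strand setting is not named in the sources used here.

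Map2 and Gsk3a are shown by sequence because the level of one was low in the libraries where the other was high, as described further on. RefSeq gave 250 bases before its own start of each gene on GRCm38.p6. These were chr1:66175079-66175328 on the plus strand for Map2 and chr7:25237852-25238101 on the minus strand for Gsk3a. Both are written 5′ to 3′ along the gene, and capitals mark the GC box, GGGCGG or, for the other strand, CCGCCC, the motif of the Sp1 family of factors.
Map2: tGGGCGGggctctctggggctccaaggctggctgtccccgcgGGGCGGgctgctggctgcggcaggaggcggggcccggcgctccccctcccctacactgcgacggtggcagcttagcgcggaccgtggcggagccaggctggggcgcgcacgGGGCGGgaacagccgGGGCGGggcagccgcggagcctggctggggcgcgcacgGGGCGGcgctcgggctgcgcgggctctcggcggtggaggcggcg
Gsk3a: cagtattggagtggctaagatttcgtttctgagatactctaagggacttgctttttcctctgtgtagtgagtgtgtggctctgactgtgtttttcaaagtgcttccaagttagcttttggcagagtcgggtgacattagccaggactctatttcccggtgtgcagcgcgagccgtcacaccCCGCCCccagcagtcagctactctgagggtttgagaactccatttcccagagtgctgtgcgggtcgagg
The Map2 window held 5 GC boxes, all on the gene's own strand, in a sequence of 81.2% GC. Its end, with the last of these boxes, runs past the Map2 start given above, 66175273, into the gene as annotated there. The Gsk3a window held 1 box on the opposite strand and was 52% GC. Of 32851 mouse promoter windows of the same length, 32.7% held the box on either strand, and the median GC content was 52.4%. Promoters were in the table for 6 of the 10 genes, and a match describes the letters alone.

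All 10 transcripts were abundant. By mean CPM Map1a ranked 22nd, Map2 52nd and Map1b 70th among the 17307 genes, Mapt ranked 158th, and the lowest, Cdk5, ranked 2646th. The fewest reads behind any value were 1323 for Cdk5 in APP/PS1 male 3, and the most were 38068 for Map1a in APP/PS1 female 1.

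Levels between genes were compared per kilobase of exon. Stmn1 stood highest at 215 ± 28.4 CPM per kb (SD, n = 12), above Map1a at 154 ± 8.01 in each of the 12 libraries. Mapt followed at 82.8 ± 3.68 and was above Gsk3a (72.0 ± 6.04) in each of the 12, although their ranges met. Gsk3a, Map2 (68.9 ± 9.12), Map1b (62.0 ± 7.35) and Cdk5r1 (62.0 ± 5.24) formed a run of neighbours with overlapping ranges: Gsk3a was above Map2 in 8 libraries, Map2 above Map1b in 10 and Map1b above Cdk5r1 in 4. Cdk5 was lower at 41.5 ± 3.54, with Mark1 at 24.5 ± 1.98 and Gsk3b last at 21.5 ± 1.65. Thus Cdk5r1 was above its kinase partner in every library, and Gsk3a was above its paralog Gsk3b once length was counted. The order depends on the length used. Over the longest coding transcript in place of all annotated exons, a choice added after seeing the data, Map2 moved from rank 5 to rank 2 at 181 CPM per kb and Gsk3b (25.5) passed Mark1 (25.3).

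**Figure D1:**
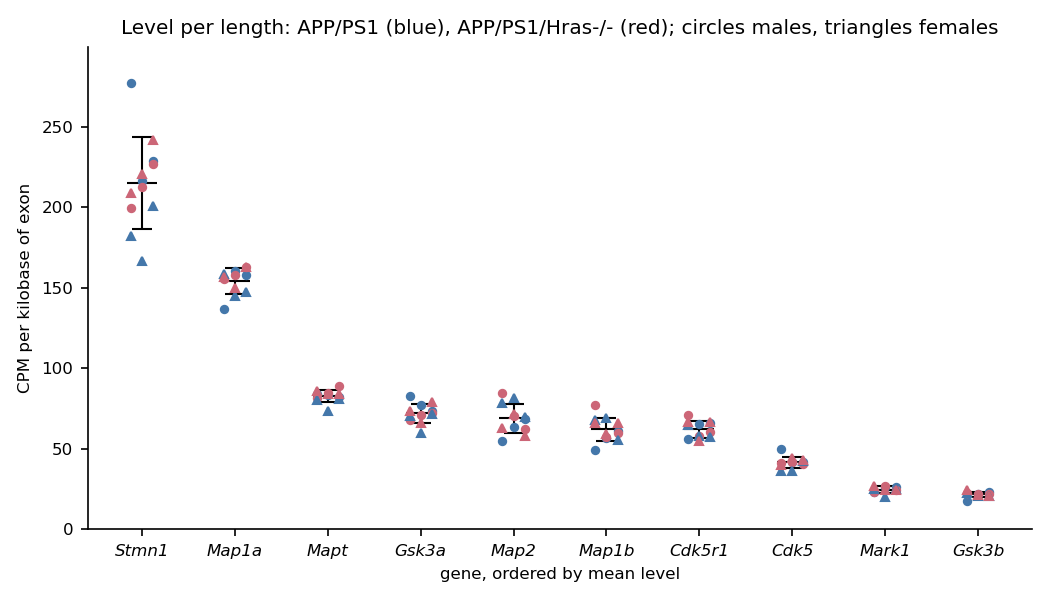
CPM per kilobase of exon (linear axis from 0) of the 10 genes, ordered by mean, with 1 point per library coloured by genotype and shaped by sex, and bars for the mean ± SD over 12 libraries. Stmn1 (215) and Map1a (154) stand above the rest, and the points of both genotypes lie intermingled in each gene.

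None of the 10 transcripts differed between the genotypes beyond the spread between mice when the sexes were pooled. By edgeR's quasi-likelihood test with Benjamini-Hochberg adjustment 0 of the 10 were called, where 0.0173% of all genes were (3 of 17307), and DESeq2 and limma-voom also called 0 of the 10. At an unadjusted p under 0.05 there were again 0 of the 10, against 1.68% of all genes. The 10 differences ran from -0.02 to 0.10 log2, 8 above 0 and 2 below, with a median of 0.05. Over all genes the median was 0.002, with 51.1% above 0. Among genes averaging 10 CPM or more, 68.8% of those with over 7500 bp of exons lay above 0 (median 0.03), a class with 5 of the 10. For those under 2500 bp, a class with 2 of the 10, it was 35.6% (median -0.02). The 95% intervals of the 10 genes together spanned -15.8% to 23.1%. The ranges of the genotypes overlapped for all 10 genes, where 0.116% of all genes had ranges apart. In bulk tissue, fewer cells of a type and less RNA per cell cannot be told apart.

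Mapt, the tau gene, varied least. In APP/PS1 mice it was at 635, 627 and 619 CPM in the males and 606, 554 and 609.9 CPM in the females. In APP/PS1/Hras-/- mice it was at 616, 638 and 668 CPM in the males and 646, 633 and 634 CPM in the females. Its coefficient of variation over the 12 libraries was 4.45%, and the genotypes differed by 0.07 log2 (SE 0.051, 95% interval -0.04 to 0.18; edgeR adjusted p = 0.9999). The female knockouts all lay above the female APP/PS1 mice, a difference of 0.11 log2 (SE 0.072; edgeR adjusted p = 0.991), and the males overlapped. Without APP/PS1 female 2, the lowest library, the Mapt difference in females was 0.07.

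Map1a, a large structural protein of mature dendrites and axons, was the most abundant of the 10 by CPM. It was at 1665, 1956 and 1921 CPM in APP/PS1 males and 1929, 1766 and 1794 CPM in APP/PS1 females. In APP/PS1/Hras-/- mice it was at 1894, 1923 and 1982 CPM in males and 1908, 1821 and 1986 CPM in females. APP/PS1 male 1 was the lowest library, and the other 11 lay between 1766 and 1986 CPM. The genotype difference of Map1a was 0.06 log2 (SE 0.059; edgeR adjusted p = 0.9999).

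Map1b, its relative that is prominent in growing axons, spread more widely (coefficient of variation 11.9%). APP/PS1 males were at 784, 899 and 971 CPM and APP/PS1 females at 1071, 1090.1 and 878 CPM. APP/PS1/Hras-/- males were at 1219.6, 912 and 944 CPM and females at 1044, 936 and 1045 CPM. The highest Map1b value came from APP/PS1/Hras-/- male 1 and the lowest from APP/PS1 male 1, so the male difference of 0.21 log2 (SE 0.13; edgeR adjusted p = 0.945) had those libraries at its ends. It was 0.07 without APP/PS1/Hras-/- male 1 and 0.13 without APP/PS1 male 1. Across sexes it was 0.10 (SE 0.092).

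Map2, the dendritic member of the tau family and a standard marker of neuronal cell bodies and dendrites, had estimates of opposite sign in the sexes. APP/PS1 males were at 906, 1048 and 1128 CPM and APP/PS1 females at 1286, 1343 and 1147 CPM. APP/PS1/Hras-/- males were at 1388, 1152 and 1021 CPM, and the females at 1036, 1179.7 and 956 CPM. The genotype difference of Map2 was 0.21 log2 (SE 0.13) in males and -0.25 (SE 0.13) in females, with overlapping ranges in both. The male value was 0.08 without APP/PS1/Hras-/- male 1, 0.13 without APP/PS1 male 1 and -0.03 with RIN as a covariate. Map2 differed by -0.02 log2 (SE 0.11, 95% interval -0.25 to 0.21) across sexes.

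Stmn1 had estimates of the opposite signs to Map2. APP/PS1 males were at 533, 416 and 440.3 CPM and APP/PS1 females at 351, 321 and 386 CPM. APP/PS1/Hras-/- males were at 383, 408 and 436 CPM and females at 402, 424 and 465 CPM. All 3 knockout females lay above all 3 APP/PS1 females, and in males the ranges overlapped. The Stmn1 difference was 0.29 log2 in females (SE 0.11, 95% interval 0.06 to 0.52; edgeR unadjusted p = 0.0184, adjusted p = 0.991) and -0.18 (SE 0.11) in males. The male value was -0.07 without APP/PS1 male 1 and 0.17 with RIN as a covariate.

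**Figure D2:**
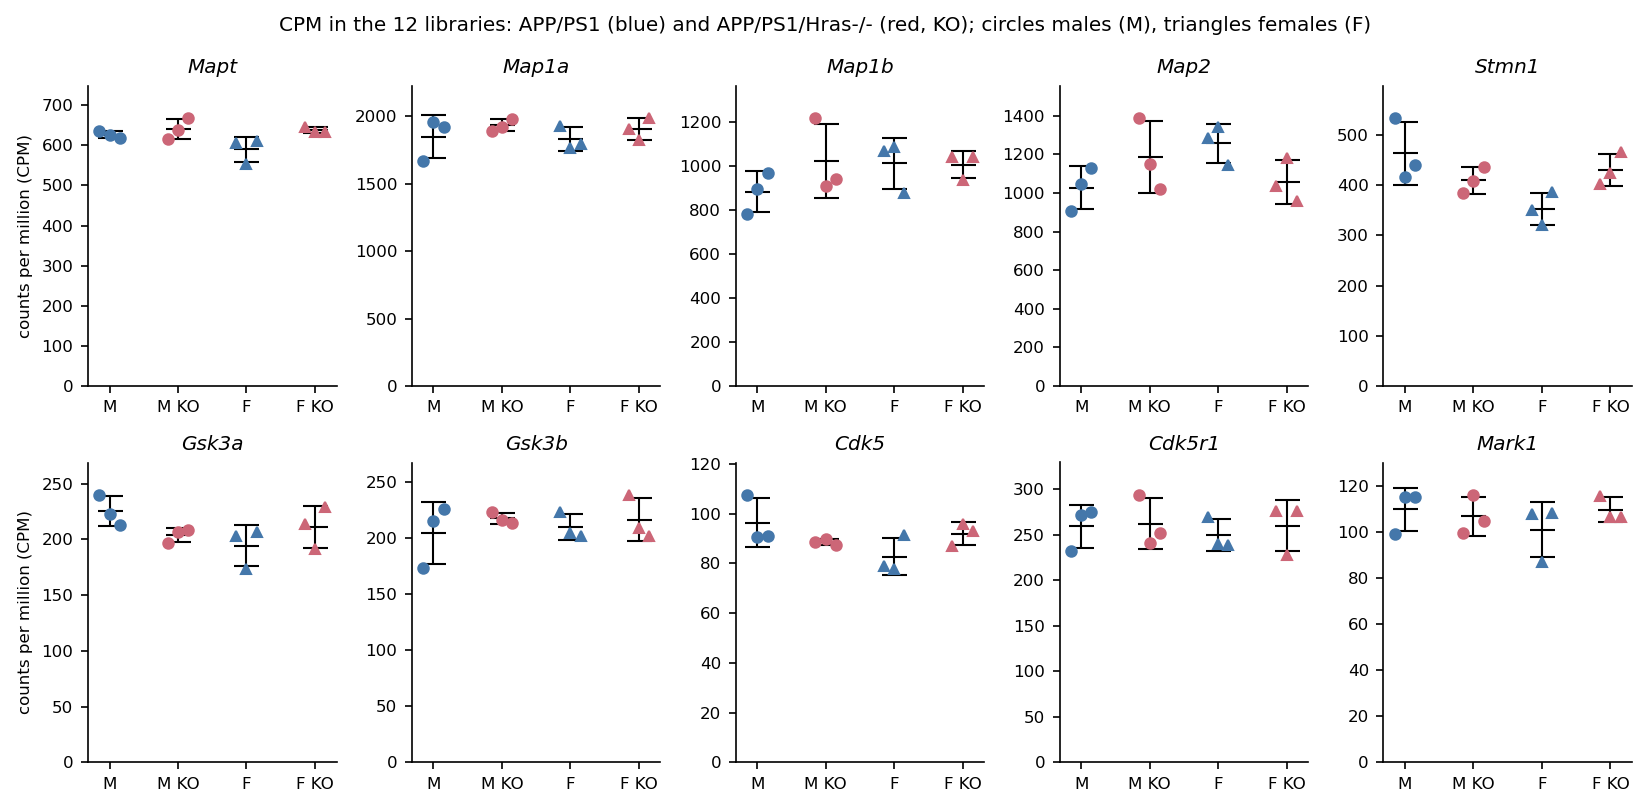
CPM of the 10 genes (linear axes from 0, 1 panel per gene) in the 4 groups, with 1 point per mouse and bars for the mean ± SD (n = 3). The genotypes overlap in each panel when the sexes are pooled; Stmn1 and Mapt are apart in females, and Gsk3a and Cdk5 in males.

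Of the kinases, Gsk3a and Cdk5 were lower in each knockout male than in any APP/PS1 male. Gsk3a was at 240.1, 223 and 213 CPM in APP/PS1 males against 197, 207 and 208 CPM in knockout males, a difference of -0.15 log2 (SE 0.091). In females it was at 203, 174 and 207 CPM in APP/PS1 and 214, 192 and 229 CPM in knockouts, with overlap and a difference of 0.12 log2. Neither Gsk3a difference was called by edgeR (adjusted p = 0.945 in males and 0.991 in females).

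Cdk5 had the same arrangement with narrower gaps. It was at 108, 90.6 and 91.0 CPM in APP/PS1 males and 88.8, 89.8 and 87.4 CPM in knockout males, a difference of -0.12 log2 (SE 0.088). Without APP/PS1 male 1 the male differences were -0.03 for Cdk5 and -0.10 for Gsk3a, and with RIN as a covariate 0.18 for Cdk5 and -0.0008 for Gsk3a. In females Cdk5 was at 79.0, 77.8 and 91.4 CPM in APP/PS1 and 86.9, 95.9 and 93.0 CPM in knockouts, a difference of 0.15 log2 (SE 0.088) with overlapping ranges.

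Cdk5r1, Gsk3b and Mark1 had no separation of genotypes in either sex. Cdk5r1 was at 232, 272 and 275 CPM in APP/PS1 males and 269.8, 239.6 and 239 CPM in APP/PS1 females. Knockout males had 294, 241 and 252 CPM of Cdk5r1 and knockout females 276, 228 and 277 CPM, and the difference across sexes was 0.04 log2 (SE 0.074). The ranges of this activator overlapped, from 232 to 275 CPM in APP/PS1 and from 228 to 294 CPM in knockouts.

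Gsk3b, the form most studied as a tau kinase, was at 173, 214 and 225 CPM in APP/PS1 males and 223, 205 and 201 CPM in APP/PS1 females. Knockout males had 223, 216 and 213 CPM of Gsk3b and knockout females 238, 209 and 202 CPM, a difference across sexes of 0.07 log2 (SE 0.069). The lowest library was APP/PS1 male 1, and the other 11 lay between 201 and 238 CPM. Mark1 was at 99.2, 115 and 115 CPM in APP/PS1 males and 108, 87.2 and 108 CPM in APP/PS1 females. Knockout males had 99.7, 116 and 105 CPM of Mark1 and knockout females 116, 107 and 106 CPM, a difference of 0.04 log2 (SE 0.071), with APP/PS1 female 2 as the lowest library.

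Within males 0 of the 10 genes were called, against 0.0116% of all genes (2 of 17307), and 0 had an unadjusted p under 0.05, against 3.91% of all genes. Groups did not overlap for 2 of the 10 (Gsk3a and Cdk5), against 10.3% of all genes. Within females 0 were called, again against 0.0116% of all genes, and Stmn1 was the 1 of 10 with an unadjusted p under 0.05, against 3.81% of all genes. Groups did not overlap for 2 of the 10 (Mapt and Stmn1), against 9.34% of all genes. DESeq2 and limma-voom called 0 of the 10 in either sex. With 10 genes, counts of 1 and 2 are close to these shares. The median difference of the 10 was 0.02 log2 in males and 0.09 in females, against 0.006 and 0.002 over all genes.

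**Figure D3:**
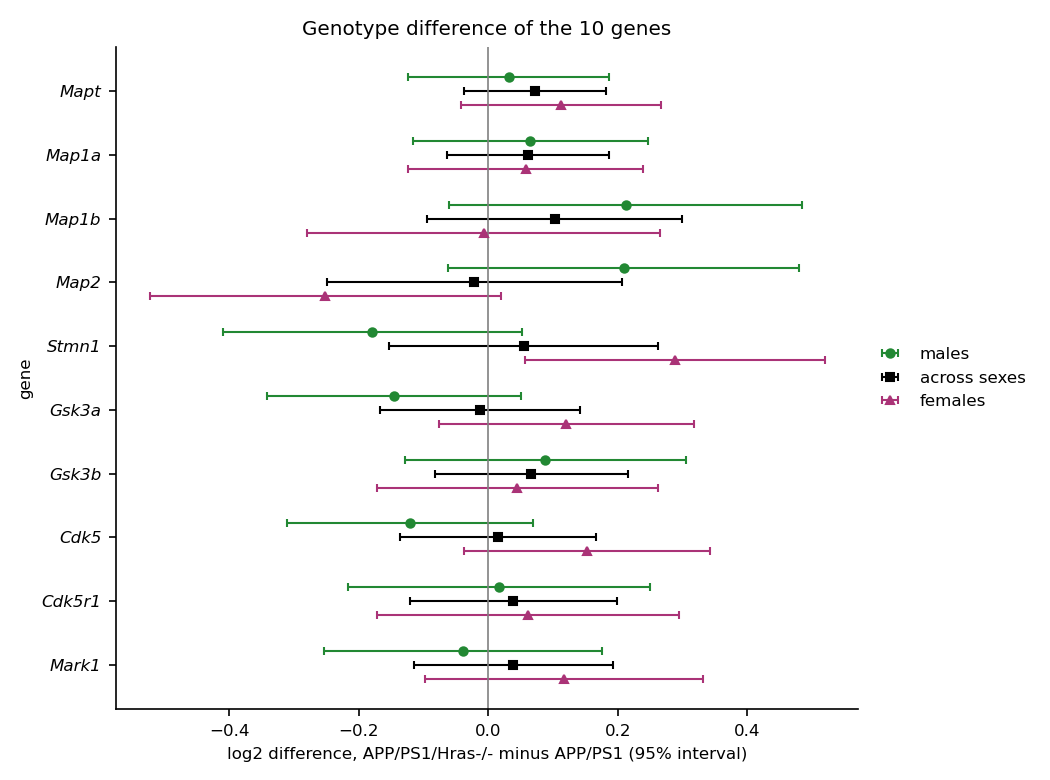
Log2 difference, APP/PS1/Hras-/- minus APP/PS1, of the 10 genes with 95% intervals in males, in females and across sexes. Intervals include 0 for each gene and comparison except Stmn1 in females (0.06 to 0.52); Map2 and Stmn1 lie on opposite sides of 0 in the sexes.

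Whether the genotype difference depended on sex was tested directly as an interaction (the female difference minus the male one). 0 of the 10 genes were called, where 0% of all genes were, by edgeR, and DESeq2 and limma-voom also called 0. At an unadjusted p under 0.05 there were 3 of the 10, against 7.21% of all genes. They were Stmn1 (0.47 log2, SE 0.15, edgeR unadjusted p = 0.00863), Map2 (-0.46, SE 0.18, unadjusted p = 0.0221) and Cdk5 (0.27, SE 0.12, unadjusted p = 0.0467). In edgeR's test each of the 3 had an adjusted p of 0.667. Gsk3a had an interaction of 0.27 log2 (SE 0.13, edgeR unadjusted p = 0.0590). The other 6 genes ran from -0.22 for Map1b to 0.16 for Mark1, and Mapt had 0.08 log2 (SE 0.10).

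RNA quality and length moved with the same contrast. RIN was 7.8 to 8.3 in APP/PS1 males and 8.6 to 8.7 in knockout males, but 8.5 to 8.6 in APP/PS1 females and 8.3 to 8.5 in knockout females. Among all genes averaging 10 CPM or more, the median interaction was 0.13 log2 for the 1491 with under 2500 bp of exons, 0.04 for the 6259 between, and -0.07 for the 2690 with over 7500 bp. Stmn1 and Cdk5, with positive interactions, were in the shortest class, and Map2 in the longest. With RIN as a covariate the interaction was 0.04 log2 for Stmn1, -0.17 for Map2, -0.10 for Cdk5 and 0.09 for Gsk3a. The same fit gave 0.49 for Gsk3b (edgeR adjusted p = 0.473) and 0.55 for Mark1 (edgeR adjusted p = 0.499). With RIN as a covariate 2 of the 10 genes had an edgeR unadjusted p under 0.05 in the interaction. It was 1 across sexes, 1 in males and 0 in females, and the share of all genes in that fit is not given here. Without APP/PS1 male 1 alone the interaction was 0.35 for Stmn1, -0.38 for Map2 and 0.19 for Cdk5. With APP/PS1/Hras-/- male 1 and APP/PS1 female 2 both left out it was 0.36, -0.29 and 0.23.

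Markers of other cells also differed between the groups. Microglial markers were at 0.26 to 0.44 (mean-centred log2 CPM) in APP/PS1 females and -0.35 to -0.04 in APP/PS1 males, with knockouts at -0.53 to 0.09 in males and -0.09 to 0.31 in females. Excitatory neuron markers were at 0.10 to 0.13 in APP/PS1 males, -0.53 to 0.06 in APP/PS1 females, -0.33 to 0.13 in knockout males and 0.01 to 0.18 in knockout females. The part of RNA quality and cell makeup in the Stmn1, Map2 and Cdk5 values was not tested beyond these fits.

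By sex alone, across genotypes, 0 of the 10 genes were called by edgeR, DESeq2 or limma-voom, against 0.0693% of all genes by edgeR, and 0 had an unadjusted p under 0.05, against 4.65% of all genes. Female minus male differences ran from -0.16 log2 for Stmn1 to 0.09 for Map1b, with a median of -0.04 against 0.002 over all genes.

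Seen library by library, the 10 genes split into those that were low and those that were high in the same mice. APP/PS1 male 1 held the lowest value of 4 genes (Map1a, Map1b, Map2 and Gsk3b) and the highest of 3 (Stmn1, Gsk3a and Cdk5). Each of those 4 genes has over 7500 bp of exons and each of those 3 has at most 2900 bp. In that library all genes under 2500 bp had a median of 0.17 and those over 7500 bp a median of -0.11 (mean-centred log2 CPM). APP/PS1 female 2 held the lowest value of 5 genes (Mapt, Stmn1, Gsk3a, Cdk5 and Mark1), and APP/PS1/Hras-/- male 1 the highest of 3 (Map1b, Map2 and Cdk5r1).

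**Figure D4:**
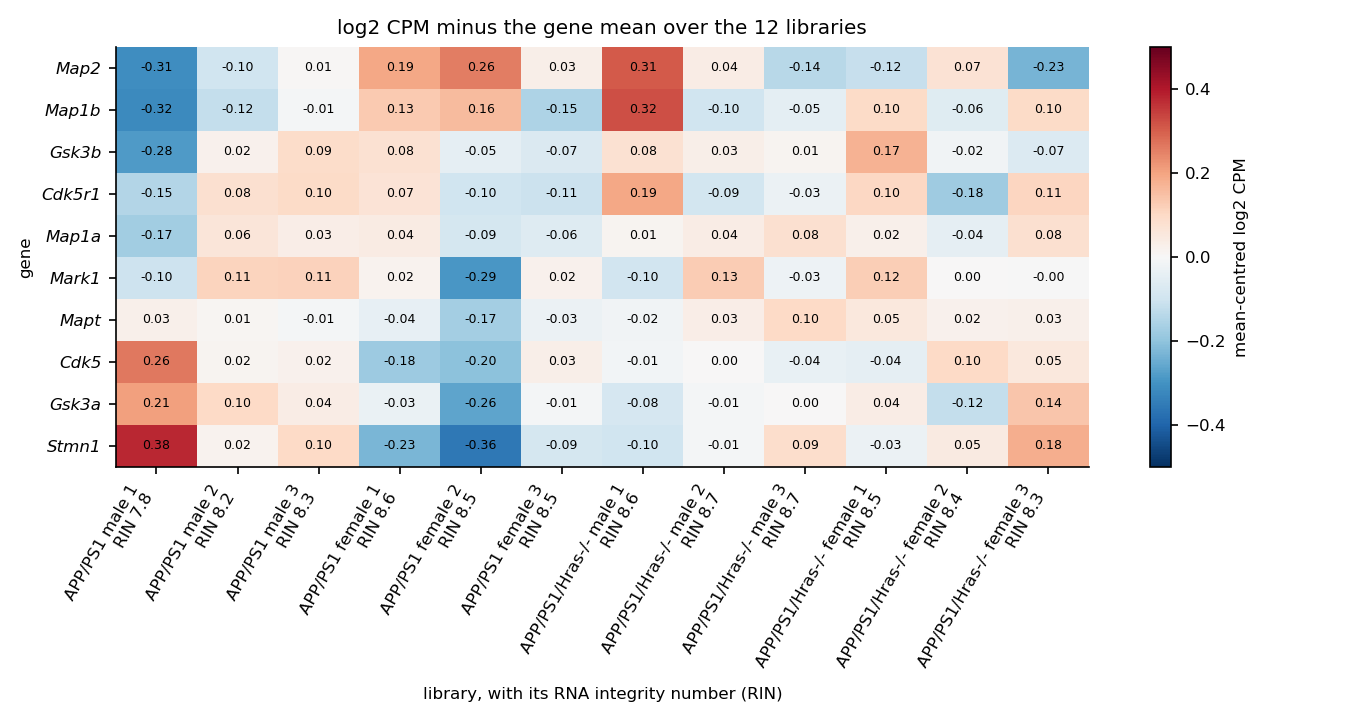
Mean-centred log2 CPM of the 10 genes (lines) in the 12 libraries (columns, with the RIN of each), red above and blue below the mean of a gene. Values run from -0.36 to 0.38; APP/PS1 male 1 (RIN 7.8) is low for Map2, Map1b and Gsk3b and high for Stmn1, Cdk5 and Gsk3a.

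Pairs of the 10 genes were therefore compared across the 12 libraries on log2 CPM, 45 pairs in all, after their values had been seen. Map2 with Gsk3a, the genes whose promoters are printed above, was the 1 pair that passed on both measures after adjustment over the 45 pairs. Pearson's r was -0.855 (permutation p = 0.00037, adjusted 0.00645) and Spearman's rho -0.916 (permutation p = 0.00014, adjusted 0.0063). Without the 2 libraries farthest from the Map2 median r was -0.841, and it was -0.922 within APP/PS1 and -0.813 within APP/PS1/Hras-/-. Map2 was thus high in the mice where Gsk3a was low, in both genotypes. Their exons span 16449 and 2900 bp, and against RIN r was 0.597 for Map2 and -0.618 for Gsk3a. Without APP/PS1 male 1 these were 0.366 and -0.386, and neither gene passed against RIN after adjustment. The part of RIN and length in this pair was not tested, and the share of all gene pairs with such an r is not given here.

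Map2 with Stmn1 had r = -0.847 (permutation p = 0.00043, adjusted 0.00645) and rho = -0.811 (permutation p = 0.00238, adjusted 0.0535), and r was -0.850 without the 2 farthest libraries. Stmn1 with Cdk5 had r = 0.903 (permutation p = 0.00033, adjusted 0.00645) and rho = 0.748 (permutation p = 0.00732, adjusted 0.104). For this pair r was 0.962 within APP/PS1, 0.445 within APP/PS1/Hras-/- and 0.701 without the 2 farthest libraries. Stmn1 with Gsk3a had r = 0.832 (permutation p = 0.00126, adjusted 0.0142) and rho = 0.727 (permutation p = 0.00925, adjusted 0.104), with r at 0.503 without the 2 farthest libraries. Leaving out APP/PS1 male 1 alone gave r values of -0.800 for Map2 with Gsk3a, -0.785 for Map2 with Stmn1, 0.833 for Stmn1 with Cdk5 and 0.757 for Stmn1 with Gsk3a. None of the other 41 pairs passed on Pearson's r.

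**Figure D5:**
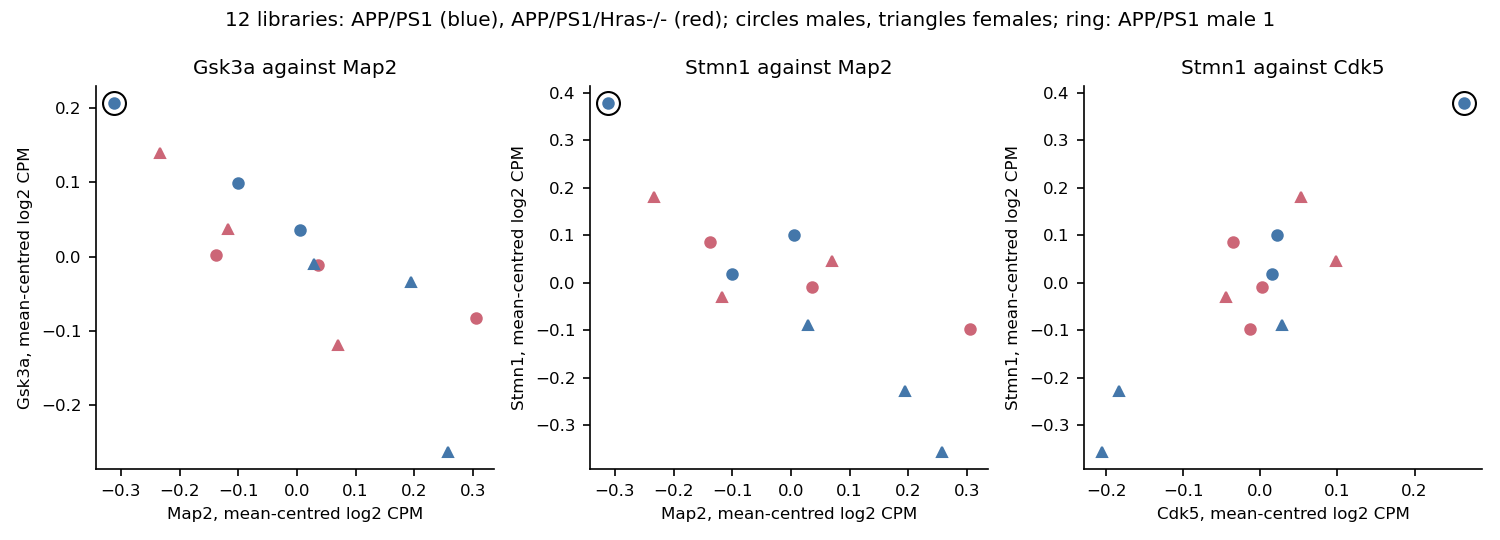
Mean-centred log2 CPM of Gsk3a against Map2, Stmn1 against Map2 and Stmn1 against Cdk5, 1 point per library coloured by genotype and shaped by sex, with a ring on APP/PS1 male 1. Gsk3a and Stmn1 are lower where Map2 is higher (r = -0.855 and -0.847), and Stmn1 is higher where Cdk5 is higher (r = 0.903).

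Against RIN, 0 of the 10 genes passed after adjustment over the 10 relations (lowest adjusted permutation p = 0.0772 for Pearson's r and 0.219 for Spearman's rho). Cdk5 had the largest r, -0.712 (rho -0.641), followed by Gsk3b at 0.669 (rho 0.350) and Stmn1 at -0.662 (rho -0.549). Without APP/PS1 male 1 and male 2, the libraries farthest from the median RIN, r was -0.382 for Cdk5, 0.176 for Gsk3b and -0.351 for Stmn1. Without APP/PS1 male 1 alone it was -0.391, 0.156 and -0.352. Within APP/PS1/Hras-/-, which does not hold that library, r was -0.675, 0.364 and -0.510. On deviations from group means over the 12 libraries it was -0.740, 0.913 and -0.651.

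Ratios of counts within a library cancel its depth, and 4 were formed. The kinase pair Gsk3a to Gsk3b was at 1.03 ± 0.19 with Hras intact and 0.962 ± 0.0932 in knockouts (mean ± SD, n = 6 per genotype; two-sided exact permutation p = 0.539). Activator to kinase, Cdk5r1 to Cdk5, was at 2.88 ± 0.438 and 2.90 ± 0.341 (exact permutation p = 0.887). Map1a to Map1b was at 1.96 ± 0.210 and 1.91 ± 0.206 (exact permutation p = 0.677). Map2 to Mapt was at 1.89 ± 0.349 and 1.76 ± 0.282 (exact permutation p = 0.5). None of the 4 differed beyond the spread between mice.

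In females the Map2 to Mapt ratio was at 2.12, 2.43 and 1.88 in APP/PS1 and 1.60, 1.86 and 1.51 in knockouts. The groups did not overlap, by a narrow margin, and the difference was -0.37 log2 (two-sided exact permutation p = 0.1, adjusted over the 4 ratios 0.4). This is the smallest p that 3 against 3 allows, so the design could not pass 0.05. In males the ratio was at 1.43, 1.67 and 1.82 in APP/PS1 and 2.25, 1.81 and 1.53 in knockouts, with overlap and a difference of 0.17 log2 (exact permutation p = 0.5). Without APP/PS1/Hras-/- male 1 the male difference was 0.03, and without APP/PS1 male 1 it was 0.08.

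Genes with the most similar profile over the 12 libraries were ranked by the root mean square difference of mean-centred log2 CPM among genes of at least 10 CPM. Map1b had the closest neighbour, Nalcn, a sodium leak channel, at 0.0242, followed by Samd12 (0.0464) and the sodium channel Scn2a (0.0490). Mapt lay nearest to Xab2 (0.0358), Mapk8ip3 (0.0377) and Rubcn (0.0377), and Map1a to Htt (0.0319), Zfp827 (0.0335) and Kansl1 (0.0345). Map2 was farther from its neighbours Prkdc (0.0565), Rsf1 (0.0695) and Akap11 (0.0713), but this measure depends on a gene's own spread. The root mean square of a gene's own values was 0.182 for Map2, 0.163 for Map1b, 0.0734 for Map1a and 0.0631 for Mapt. These distances therefore do not rank closeness between the genes. With a minimum of 50 CPM, Mapk8ip3 became the nearest to Mapt and Rsf1 to Map2. Stmn1 lay nearest to the mitochondrial creatine kinase Ckmt1 (0.0487), then Slc29a2 (0.0609) and the elongation factor Eef1a2 (0.0630).

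Among the kinase genes Gsk3b lay nearest to the clathrin heavy chain gene Cltc (0.0346), Glg1 (0.0423) and Mtmr6 (0.0426). Gsk3a lay nearest to Strn4 (0.0401), Acbd6 (0.0414) and Polrmt (0.0417), and Cdk5 to the myosin light chain gene Myl6 (0.0436), Cbx6 (0.0483) and Mrpl45 (0.0520). Cdk5r1 lay nearest to the endophilin gene Sh3gl2 (0.0460), the microtubule minus-end protein Camsap1 (0.0492) and Arel1 (0.0497). The genes close to Mark1 included Ank (0.0521) and the synaptic scaffold Dlg1 (0.0521).

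The wider tau and microtubule machinery was covered by 7 lists. In any of the 5 comparisons edgeR called 0 genes of any of them, against 0% to 0.0693% of all genes. Among 31 other microtubule-associated proteins 0 had an unadjusted p under 0.05 across sexes, against 1.68% of all genes. Of the 31, 21 lay above 0 with a median of 0.02 log2, against 51.1% of all genes. The 31 include 16 with over 7500 bp of exons, a class with 68.8% above 0, and 3 with under 2500 bp. Stmn3, the stathmin relative with the highest level per length among them, differed by -0.25 log2 in males (SE 0.099) and 0.15 in females (SE 0.099), an interaction of 0.40 (SE 0.14, edgeR adjusted p = 0.667). Tppp, a microtubule-bundling protein of oligodendrocytes, had 0.06 log2 across sexes (SE 0.056), and Clasp2, which steadies growing plus ends, had 0.09 (SE 0.063).

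Of 16 tubulin genes 0 had an unadjusted p under 0.05 across sexes, against 1.68% of all genes. In the interaction 5 of the 16 did, all above 0, against 7.21% of all genes. The median interaction of the 16 was 0.17 log2 against -0.007 over all genes. Of the 16, 13 have under 2500 bp of exons, the class of all genes with a median interaction of 0.13 and 73.6% above 0, and the part of length and RIN in the tubulin values was not tested. Tubb4a, the most abundant per length, had an interaction of 0.31 log2 (SE 0.18), Tuba1a had -0.06 (SE 0.23), and Tuba1c differed by -0.41 across sexes (SE 0.22, edgeR adjusted p = 0.9999). Of 26 tubulin-modifying and severing enzymes 1 had an unadjusted p under 0.05 across sexes, against 1.68% of all genes. It was Ttll3, which adds glycine to tubulin, at -0.23 log2 (SE 0.10). In the same list Ttll7, which adds glutamate, had 0.04 (SE 0.074) and the deacetylase Sirt2 0.01 (SE 0.060).

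Of 31 other tau kinases 0 had an unadjusted p under 0.05 across sexes, against 1.68% of all genes. In the interaction 3 of the 31 did, all above 0, a share close to the 7.21% of all genes. Camk2a, at 469 CPM per kb the most abundant of them, differed by -0.004 log2 (SE 0.060), and Mapk8, a stress-activated kinase, by 0.09 (SE 0.049). Camk2b differed by -0.18 in males (SE 0.081) and 0.17 in females (SE 0.081), an interaction of 0.35 log2 (SE 0.11, edgeR adjusted p = 0.667). The 3 APP/PS1 males had 968, 921 and 942 CPM of Camk2b and the 3 APP/PS1 females 812, 739 and 809 CPM. Knockout males had 860, 769 and 868 CPM and knockout females 845, 864 and 942 CPM. By sex across genotypes Camk2b differed by -0.09 log2 (SE 0.073, edgeR adjusted p = 0.989).

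Of 25 phosphatases and their regulators, the enzymes that remove phosphate from tau, 22 lay below 0 in males and 20 above 0 in females, with medians of -0.05 and 0.05 log2. Over all genes 51.5% lay above 0 in males and 50.5% in females. In the interaction 21 of the 25 lay above 0, against 49.0% of all genes, and 2 of the 25 had an unadjusted p under 0.05, against 7.21% of all genes. Of the 25, 1 has under 2500 bp of exons and 5 have over 7500 bp. In the class between, among genes averaging 10 CPM or more, 44.5% lay above 0 in males and 59.0% in females. For the interaction that share was 58.5%. Excitatory neuron markers lay the same way, 9 of 10 below 0 in males and 9 of 10 above 0 in females, and RIN differed between the groups as given above. The part of length, RIN and neuronal share in the phosphatase values was not tested. The calcineurin subunit Ppp3r1 had 0.04 log2 across sexes (SE 0.064), the protein phosphatase subunit Ppp2r2c 0.01 (SE 0.055) and Ppp2r1b -0.09 (SE 0.066). Of 20 genes for tau binding, spread and clearance 0 had an unadjusted p under 0.05 in any of the 5 comparisons. Over all genes the shares were 1.68% to 7.21%. The chaperones Hspa8 and Hsp90aa1 differed by -0.08 (SE 0.090) and 0.05 log2 (SE 0.062). Crebbp, an acetyltransferase that can modify tau, had 0.09 log2 (SE 0.055).

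Of 25 motor protein genes 24 were tested, and 21 of them lay above 0 across sexes, with a median of 0.04 log2, against 51.1% of all genes and 68.8% of those with over 7500 bp of exons (median 0.03). Of the 24, 7 have over 7500 bp and 0 have under 2500 bp. The rest fall in the class between, in which 51.8% of genes lay above 0 (median 0.003). Dync1h1, the dynein heavy chain, was the 1 of 24 with an unadjusted p under 0.05, against 1.68% of all genes. It differed by 0.13 log2 (SE 0.056, edgeR adjusted p = 0.9999). Kif5a, a kinesin and the most abundant per length, differed by 0.13 log2 (SE 0.10) with a range of 3233 to 5282 CPM. Dynll2, a dynein light chain, had an interaction of 0.35 log2 (SE 0.12, edgeR adjusted p = 0.667).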

How the data were processed

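Raw counts per gene for 12 libraries, 1 per mouse, were deposited by the authors. Per the labels' protocols, total RNA of frontal cortex went through the TruSeq Stranded mRNA kit, and the tools were HISAT2 2.1.0, featureCounts, Trimmomatic 0.33 and FastQC 0.11.7, per the submitters' processing notes, which also list the builds mm10 and mm9 without roles. The annotation release and the handling of strand and of reads with several matches are not named in the sources used here.

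Gene identifiers were matched to GENCODE M21; 37 unmatched genes held 0.00986% of counts. edgeR 4.0.16 was run on all 12 libraries (TMM scaling, filterByExpr, quasi-likelihood test, Benjamini-Hochberg adjustment over 17307 genes, threshold 0.05). The fit across sexes held genotype and sex, and a fit with 4 group means gave the differences within each sex and the interaction. CPM used TMM-scaled library sizes. limma 3.58.1 and DESeq2 1.42.0 were alternatives, and the scripts were tested on simulated data. Correlations were tested by 100000 permutations. Mean-centred log2 CPM of a marker list is the mean over its genes. Replicate numbers follow accession order and pair nothing.

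The 10 genes and all lists were chosen with earlier results of these data known. Named genes were the 10, the 2 highest per kilobase and the 1 with the smallest p across sexes in each of 7 lists, the 3 nearest profiles per gene, Hras and the first gene of each marker list; some of these genes are not reported here. Samples were grouped by the genotype and sex of the labels.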

Additional observations from a re-analysis of the deposited data

Results flagged for a closer look

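Of 28 groups of 6 values tested for a single distant value, 3 had one, where chance gives about 1 in 20. The lowest Mapt level of the APP/PS1 mice, 553.6 CPM in female 2, lay far below the other 5. The highest Gsk3a to Gsk3b count ratio of the APP/PS1 mice, 1.385 in male 1, and that of the APP/PS1/Hras-/- mice, 1.137 in female 3, lay far above the other 5 of their genotype. Male 1 and female 3 had the lowest RIN of their genotypes, 7.8 and 8.3; the part of RNA quality in these ratios was not tested.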

How the results depend on the processing

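None of the 10 genes was called in any of the 5 comparisons under any alternative. The count of all genes called moved with the tool and filter. With DESeq2 it was 7 across sexes (3 by edgeR), 4 in males (2), 5 in females (2) and 27 for sex (12). Without a filter it was 5 across sexes and 4 in females. Leaving out 1 library gave 9 to 20 genes for sex, 20 without APP/PS1/Hras-/- male 2. None of the count ratios passed. With single libraries left out, Map2 to Mapt kept its sign in each comparison and Gsk3a to Gsk3b in males, and the others changed sign. The log2 Gsk3a to Gsk3b difference ran from -0.133 to 0.00873 across sexes and -0.0302 to 0.154 in females. Cdk5r1 to Cdk5 ran from -0.0642 to 0.0729 across sexes, -0.0294 to 0.214 in males and -0.202 to 0.0269 in females. Map1a to Map1b ran from -0.0914 to 0.0193 across sexes, -0.211 to 0.00942 in males and -0.0211 to 0.146 in females. With APP/PS1/Hras-/- male 1 and APP/PS1 female 2 both left out, Cdk5r1 to Cdk5 was -0.00126 across sexes, and Map1a to Map1b 0.00942 in males and -0.0211 in females; the cause was not tested. Of 1010 refitted differences of single genes 58 changed sign, none of them under another scaling, tool or filter. With RIN as a covariate the male difference changed sign for 6 of the 10 genes and the interaction for 4. Groups apart in males numbered 1 of the 10 with upper quartile scaling, against 2. It was 3 with APP/PS1/Hras-/- male 1 and APP/PS1 female 2 both left out. That setting holds fewer knockout males, so groups come apart more easily. The share of all genes under these settings is not given here. No paired analysis was possible because the labels give no replicate numbers.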

Other observations

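Other cell markers give the setting of the 10 genes, as mean-centred log2 CPM per library. Inhibitory neuron markers were highest in the 3 APP/PS1 males, at 0.15 to 0.18, and lowest in APP/PS1 female 2 at -0.23. Oligodendrocyte markers ran from -0.59 in APP/PS1 female 2 to 0.47 in APP/PS1/Hras-/- female 2. Oligodendrocyte precursor markers were at 0.08 to 0.20 in APP/PS1 females and -0.14 to -0.06 in APP/PS1 males. In knockouts they overlapped, at -0.16 to 0.01 in females and -0.20 to 0.20 in males. Astrocyte markers were at 0.13 to 0.18 in APP/PS1 females and -0.16 to -0.04 in APP/PS1 males. Knockouts overlapped here too, at -0.10 to 0.12 in females and -0.22 to 0.15 in males. Endothelial and mural markers spanned -0.18 to 0.20. Choroid plexus markers ran from -1.42 to 3.16, leptomeningeal markers from -0.65 to 0.79 and striatal neuron markers from -1.13 to 1.21.

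First genes of these lists were also fitted. Pdgfra, of oligodendrocyte precursors, had a genotype difference of 0.44 log2 in males (SE 0.13) and -0.41 in females (SE 0.13), an interaction of -0.85 (SE 0.19; edgeR adjusted p = 0.667). The astrocyte water channel Aqp4 had an interaction of -0.72 log2 (SE 0.24) and the microglial receptor Cx3cr1 one of -0.48 (SE 0.17). For the transporter Slc17a7 of excitatory neurons it was 0.25 (SE 0.19) and for Gad1 of inhibitory neurons 0.25 (SE 0.16). Cldn5 (0.02, SE 0.25) and Ppp1r1b (-0.12, SE 0.65) were nearer 0. Of the 10 endothelial and mural markers, Cldn5 among them, 8 had an interaction below 0, with a median of -0.16 log2. Ttr (-3.97, SE 3.05) and Dcn (-1.55, SE 0.90) had wide errors. None of these marker genes was called by edgeR.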
